A study of Mus musculus with 8 samples.

Results

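The genes of the cone phototransduction cascade were followed in bulk RNA-seq of retinas from mice with a conditional deletion of *Mettl3*. The 10 members were chosen by gene name from the 54532 genes of the count table: the cone opsins *Opn1sw* and *Opn1mw*, the cone transducin subunits *Gnat2*, *Gnb3* and *Gngt2*, the phosphodiesterase subunits *Pde6c* and *Pde6h*, the channel subunits *Cnga3* and *Cngb3*, and the cone arrestin *Arr3*. The Mettl3-CKO group held 4 retinal samples of *Six3-Cre*+; *Mettl3* floxed/floxed mice, in which Cre acts in retinal progenitors and *Mettl3*, the catalytic subunit of the m6A RNA methyltransferase, is removed from the cells they give rise to. The control group held 4 retinal samples of littermates, whose own floxed and Cre alleles are not given in the labels. Both groups were labelled postnatal day 7, whereas the study's methods give day 6. The study described the deletion as efficient in the central retina, and cells outside it may have kept *Mettl3*. The labels do not say whether each sample was 1 animal, and the p-values therefore measure the spread between these samples.

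Cones are the photoreceptors of daylight and colour vision. Light activates the cone opsin, which switches on the G protein transducin; transducin releases the inhibitory subunit of phosphodiesterase, the enzyme hydrolyses cGMP, and the cGMP-gated channel closes. Cone arrestin then binds the opsin and ends its activity. Rods run the same cascade on a paralogous set of proteins, and in the mouse retina the short-wavelength opsin appears in cones before the medium-wavelength opsin.

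Most genes of the cone cascade did not pass the test for a difference between *Mettl3*-CKO and control retinas. Of the 9 members with enough counts to be tested, *Gnb3* and *Pde6h* passed an adjusted p of 0.05 on the lower side (edgeR's quasi-likelihood test, Benjamini-Hochberg over 17998 genes), and 7 did not pass. Among all tested genes 4.05% were called lower and 6.49% higher. In the same libraries 6 of 9 rod counterparts of these genes were lower, and 0 were higher, also at an unadjusted p under 0.05 in edgeR, DESeq2 or limma voom.

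The libraries held 16227095 to 20281517 counts in genes, and 3 counts correspond to 0.148 to 0.185 CPM (reads of a gene scaled to a common library size) in a sample. CPM values are scaled by the trimmed mean of M-values (TMM). *Mettl3* itself was at 21.1, 29.6, 21.3 and 24.3 CPM in Mettl3-CKO samples 1 to 4 and at 33.8, 32.5, 29.4 and 29.3 CPM in controls 1 to 4. Sample Mettl3-CKO 2 lay inside the control range, and the log2 fold change was -0.38 ± 0.12 (SE, n = 4 per group; adjusted p = 0.0602). Neural retina markers were present throughout, with a summed level of 2406 to 2565 CPM in controls and 2065 to 2288 CPM in Mettl3-CKO. Lens markers reached 3041 CPM in control 4 and 66.4 CPM in control 1, against 6.71 to 21.2 CPM in the other 6 samples. Control 1 also stood apart within the cascade: it was the highest control for 8 of the 9 tested members and the highest of all 8 samples for 6. Its ratio to the mean of the other controls ran from 1.05 for *Gngt2*, the exception, to 1.67 for *Gnat2*. Each member is therefore given with and without control 1, and results that control 4 decides are given without it.

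**Figure D1:**
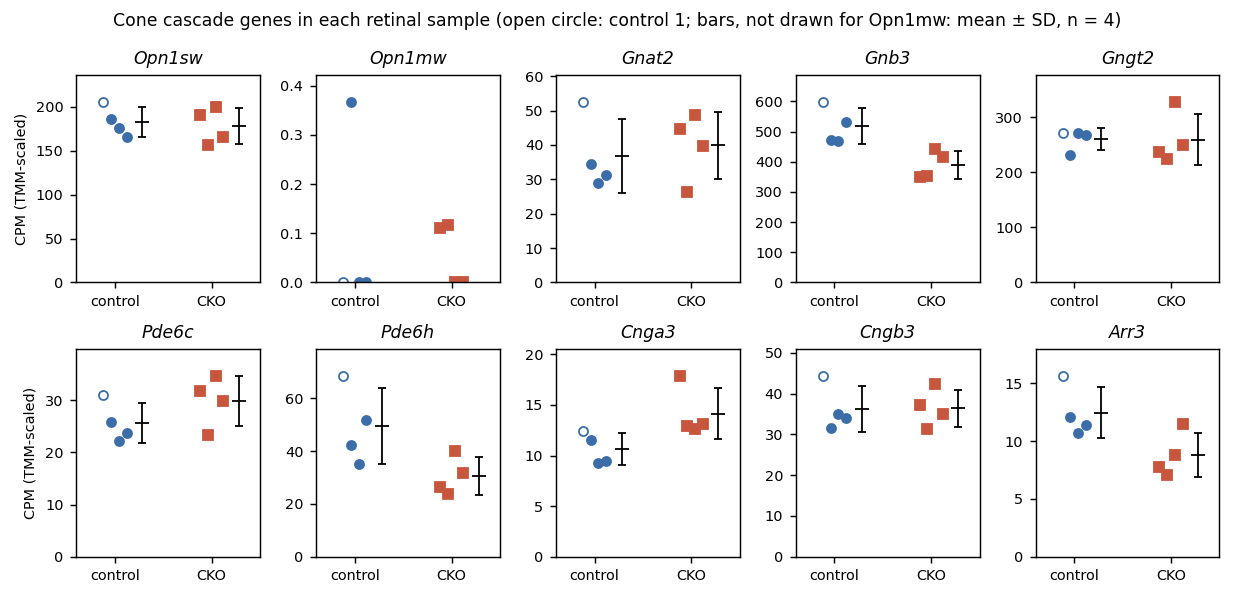
Level of each cone cascade gene in CPM (y axis, from 0) in 4 control samples (circles, control 1 open) and 4 Mettl3-CKO samples (squares); the bars give mean ± SD, n = 4, and are not drawn for *Opn1mw*, which had 10 counts in all. The groups separate downward for *Gnb3* and upward for *Cnga3*, and they overlap for the other 7 tested genes.

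The promoter windows of 6 of the 10 members were found in the RefSeq table of GRCm38.p6, and *Gnb3*, *Gngt2*, *Pde6c* and *Cngb3* had no entry. *Crx*, the homeodomain factor of photoreceptor genes, was lower in *Mettl3*-CKO retinas, and 4 windows are shown with its core recognition letters TAATC, or GATTA on the other strand, in capitals. Each window holds the 250 bases before a RefSeq transcription start, 5′ to 3′ on the gene's strand. They lie at chr6:29380514-29380763 on the minus strand for *Opn1sw*, and on the plus strand at chr3:108092816-108093065 for *Gnat2*, chr6:136954273-136954522 for *Pde6h* and chrX:100605247-100605496 for *Arr3*. The windows of *Opn1sw*, *Gnat2* and *Pde6h* fall inside the annotated span of the gene, and any start further upstream was not searched.
Opn1sw: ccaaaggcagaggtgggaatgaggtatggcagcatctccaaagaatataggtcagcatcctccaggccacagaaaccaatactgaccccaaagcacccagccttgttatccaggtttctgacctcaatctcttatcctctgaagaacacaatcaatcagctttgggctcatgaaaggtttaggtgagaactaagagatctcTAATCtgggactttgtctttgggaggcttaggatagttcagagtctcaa
Gnat2: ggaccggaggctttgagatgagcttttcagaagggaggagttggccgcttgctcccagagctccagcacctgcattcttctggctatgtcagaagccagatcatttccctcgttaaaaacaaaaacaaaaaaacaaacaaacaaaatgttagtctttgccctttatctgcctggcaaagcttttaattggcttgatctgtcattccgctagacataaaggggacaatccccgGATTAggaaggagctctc
Pde6h: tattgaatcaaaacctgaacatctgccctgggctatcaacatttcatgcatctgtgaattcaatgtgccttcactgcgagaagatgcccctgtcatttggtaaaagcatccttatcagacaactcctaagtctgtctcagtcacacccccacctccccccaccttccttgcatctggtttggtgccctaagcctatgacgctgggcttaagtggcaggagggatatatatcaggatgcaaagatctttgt
Arr3: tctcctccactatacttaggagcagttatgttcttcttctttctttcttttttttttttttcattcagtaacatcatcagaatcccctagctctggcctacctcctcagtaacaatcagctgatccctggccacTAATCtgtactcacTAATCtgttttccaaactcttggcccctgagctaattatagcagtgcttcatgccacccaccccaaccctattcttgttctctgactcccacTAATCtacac
*Opn1sw* held 1 copy, 49 bases before the start, *Gnat2* held 1, 18 bases before it, and *Arr3* held 3, at 116, 102 and 10 bases before it. No copy was in the window of *Pde6h*, of *Opn1mw*, or of either start of *Cnga3*. At least 1 copy was found in 19.8% of all 32851 windows of this length in the table and at least 3 in 0.554%. A match describes letters in the window and is not evidence of binding.

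Nearly all cone opsin counts came from the short-wavelength opsin, whose level differed between the groups by less than the replicate spread. *Opn1sw* (ENSMUSG00000058831, chr6:29376671-29388468, minus strand, GRCm38) was at 191, 156, 200 and 166 CPM in Mettl3-CKO samples 1 to 4 and at 206, 186, 175 and 165 CPM in controls 1 to 4. The values interleaved, with means of 178 ± 20.5 and 183 ± 17.3 CPM (SD, n = 4 each). On the log2 scale the fold change was -0.04 ± 0.10 (SE; 95% interval -0.25 to 0.18; adjusted p = 0.859) and 0.02 without control 1 (adjusted p = 0.886). The exons of *Opn1sw* share 397 bases, 15.5% of the gene's exonic length, with *Calu* on the other strand, and whether the counting used strand is not given in the sources used here. In bulk samples fewer cells of a type and less RNA per cell cannot be told apart, so the level gives neither the number of cones nor the opsin RNA in each.

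Medium-wavelength opsin was barely detected. *Opn1mw* (ENSMUSG00000031394, chrX:74127464-74150760) had 2, 2, 0 and 0 counts in Mettl3-CKO samples 1 to 4 and 0, 6, 0 and 0 counts in controls 1 to 4, or 10 counts in all beside 26263 counts of *Opn1sw*. It failed the filter on low counts and was not tested. All 6 control counts came from control 2, where *Opn1mw* made up 0.198% of the opsin counts (95% exact binomial interval 0.0725% to 0.430%). The 5 samples without a count allow a share of up to 0.0780% to 0.110% (3 counts), and these limits cover counting error only. Per gene length the share averaged 0.0541% ± 0.0634 in Mettl3-CKO and 0.0808% ± 0.162 in controls (SD, n = 4 each), a difference of -0.0267 percentage points (2-sided exact permutation test over samples, p = 1). A difference in the opsin switch was not detectable at this depth and age.

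Among the transducin genes the β subunit was lower and the α and γ subunits were not called. *Gnb3* (ENSMUSG00000023439, chr6:124834240-124840275, minus strand), the β subunit that cones share with ON bipolar cells, was at 349, 353, 442 and 416 CPM in Mettl3-CKO samples 1 to 4 and at 599, 474, 470 and 532 CPM in controls 1 to 4. Every Mettl3-CKO value lay below every control value. The means were 390 ± 46.3 and 519 ± 60.7 CPM (SD, n = 4 each), a level 24.8% lower on the fitted scale. The log2 fold change was -0.41 ± 0.11 (SE; 95% interval -0.65 to -0.18; adjusted p = 0.0306, edgeR), and -0.33 ± 0.09 without control 1 (adjusted p = 0.0225). Of the 8 fits that left 1 sample out, the call was lost without control 4 (adjusted p = 0.0711), without Mettl3-CKO 1 (0.118) or without Mettl3-CKO 2 (0.0825), while the direction stayed. Because ON bipolar cells also carry *Gnb3*, their markers are given beside it, of which 9 of 10 were tested. *Prkca* was lower (log2 fold change -0.44, adjusted p = 0.0339, edgeR), *Pcp2* was higher (0.94, adjusted p = 0.0187) and 7 were not called. The median log2 fold change of the 9 was 0.18, with 6 fitted values above 0 and 3 below. At an unadjusted p under 0.05 in edgeR, 3 were higher and 1 lower, beside 13.5% and 11.1% of all genes. limma voom called 3 higher and 1 lower, beside 11.9% and 8.71%. Without control 1 the log2 fold change of *Prkca* was -0.48 (adjusted p = 0.00959). No ON bipolar marker was called lower without Mettl3-CKO 1, 2 or 3 or without control 3 or 4. None was called higher without Mettl3-CKO 1, Mettl3-CKO 3 or control 2. The summed level of the 10 markers was 114 to 140 CPM in controls and 112 to 130 CPM in Mettl3-CKO. Within that sum *Prkca* averaged 64.3 CPM in controls and 47.5 CPM in Mettl3-CKO. *Grm6*, the defining glutamate receptor of these cells, was at 0 to 0.276 CPM and was not tested. The part of bipolar cells in the lower *Gnb3* was not tested.

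*Gnat2* (ENSMUSG00000009108, chr3:108092789-108101432), the α subunit that carries the signal from opsin to phosphodiesterase, was at 44.5, 26.4, 48.7 and 39.8 CPM in Mettl3-CKO samples 1 to 4 and at 52.6, 34.5, 28.9 and 31.2 CPM in controls 1 to 4. Control 1 was the highest of the 8 and Mettl3-CKO 2 the lowest. Its log2 fold change was 0.12 ± 0.20 (SE; 95% interval -0.32 to 0.55; adjusted p = 0.785) and 0.34 ± 0.15 without control 1 (adjusted p = 0.145), so it did not pass either way, although the fitted value depended on that library.

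*Gngt2* (ENSMUSG00000038811, chr11:95837216-95845734), the γ subunit that anchors cone transducin to the membrane, was at 237, 224, 328 and 249 CPM in Mettl3-CKO samples 1 to 4 and at 271, 231, 271 and 269 CPM in controls 1 to 4. Mettl3-CKO 3 was the highest of all samples, and the other 3 lay below controls 1, 3 and 4. Its log2 fold change was -0.01 ± 0.12 (SE; 95% interval -0.26 to 0.25; adjusted p = 0.985), and 0.01 without control 1. *Abi3*, on the other strand, overlaps 234 bases of its exons.

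Of the phosphodiesterase subunits, the inhibitory one was lower and the catalytic one was not called. *Pde6h* (ENSMUSG00000064330, chr6:136923832-136968865), the γ subunit that holds the cone enzyme inactive in the dark, was at 26.5, 23.8, 40.1 and 31.9 CPM in Mettl3-CKO samples 1 to 4 and at 68.4, 42.1, 35.1 and 51.7 CPM in controls 1 to 4. The groups overlapped, since Mettl3-CKO 3 exceeded control 3. The means were 30.6 ± 7.17 and 49.4 ± 14.4 CPM (SD, n = 4 each), a level 38.0% lower on the fitted scale. The log2 fold change was -0.69 ± 0.20 (SE; 95% interval -1.12 to -0.26; adjusted p = 0.0431, edgeR). Without control 1 it was -0.49 ± 0.16, or 28.7% lower (adjusted p = 0.0419). The call rested on most libraries: it was lost without Mettl3-CKO 1 (adjusted p = 0.160), 2 (0.119) or 4 (0.0822) and without control 2 (0.0625) or control 4 (0.0929).

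*Pde6c* (ENSMUSG00000024992, chr19:38132781-38183958), the catalytic subunit, was at 31.7, 23.3, 34.5 and 29.8 CPM in Mettl3-CKO samples 1 to 4 and at 30.9, 25.8, 22.2 and 23.7 CPM in controls 1 to 4. In 3 of the 4 Mettl3-CKO samples it was above controls 2 to 4. With all samples the log2 fold change was 0.22 ± 0.13 (SE; 95% interval -0.07 to 0.51; adjusted p = 0.354) and 0.32 ± 0.12 without control 1 (adjusted p = 0.0788). limma voom with sample quality weights called it higher, at 0.33 (adjusted p = 0.0474).

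Of the channel subunits, *Cnga3* lay higher in every Mettl3-CKO sample than in any control without passing the test, and *Cngb3* did not differ beyond the spread. *Cnga3* (ENSMUSG00000026114, chr1:37214434-37263384), the pore-forming α subunit, was at 17.9, 12.9, 12.6 and 13.1 CPM in Mettl3-CKO samples 1 to 4 and at 12.5, 11.5, 9.28 and 9.43 CPM in controls 1 to 4. The groups did not overlap, though control 1 and Mettl3-CKO 3 were nearly level and Mettl3-CKO 1 stood far above the rest. The log2 fold change of 0.40 ± 0.15 (SE; 95% interval 0.08 to 0.73) missed the threshold (adjusted p = 0.112, edgeR). Without control 1 it was 0.49 ± 0.15, or 40.4% higher, and passed (adjusted p = 0.0333). limma voom called it with all samples (adjusted p = 0.0297). *Cngb3* (ENSMUSG00000056494, chr4:19280850-19510623), the modulatory β subunit, was at 37.1, 31.3, 42.2 and 35.0 CPM in Mettl3-CKO samples 1 to 4 and at 44.3, 31.5, 34.9 and 33.9 CPM in controls 1 to 4. Its values interleaved, with a log2 fold change of 0.01 ± 0.12 (SE; 95% interval -0.26 to 0.27; adjusted p = 0.973), and 0.12 without control 1 (adjusted p = 0.433).

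*Arr3* (ENSMUSG00000060890, chrX:100605497-100618493), the cone arrestin that is often used to stain cones, was at 7.80, 7.07, 8.77 and 11.5 CPM in Mettl3-CKO samples 1 to 4 and at 15.6, 12.1, 10.7 and 11.4 CPM in controls 1 to 4. Mettl3-CKO samples 1 to 3 lay below every control, and Mettl3-CKO 4 lay among them. The means were 8.78 ± 1.93 and 12.4 ± 2.20 CPM (SD, n = 4 each). The log2 fold change was -0.50 ± 0.17 (SE; 95% interval -0.87 to -0.13; adjusted p = 0.0856, edgeR) and -0.37 without control 1 (adjusted p = 0.126). DESeq2 placed it just under the threshold (adjusted p = 0.0496), and so did edgeR without Mettl3-CKO 4 (log2 fold change -0.66, adjusted p = 0.0333).

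**Figure D2:**
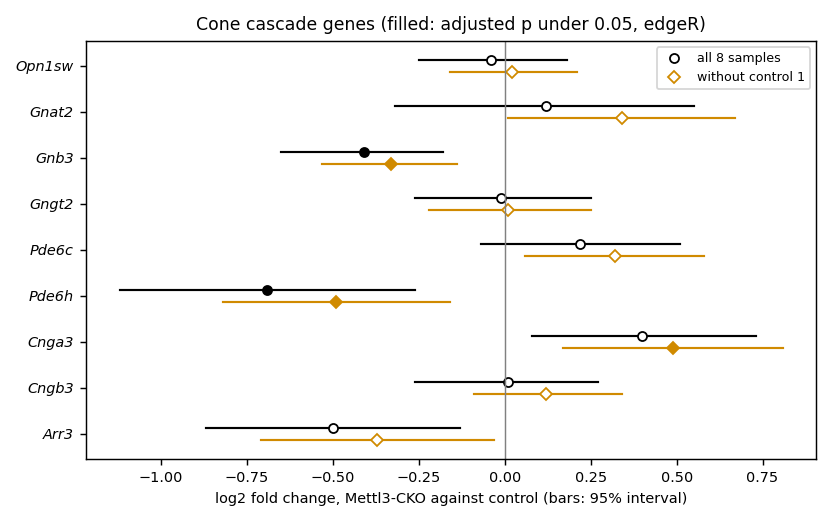
Log2 fold change of Mettl3-CKO against control (x axis) for the 9 tested cone cascade genes, with 95% intervals, from all 8 samples (black circles) and without control 1 (orange diamonds); filled symbols passed an adjusted p of 0.05 in edgeR. *Gnb3* and *Pde6h* are filled in both fits and *Cnga3* only without control 1.

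Counted over the cascade, 2 of 9 tested members were called lower and 0 higher with all samples, beside 4.05% and 6.49% of all genes. At an unadjusted p under 0.05 there were 3 lower (*Gnb3*, *Pde6h* and *Arr3*) and 1 higher (*Cnga3*), beside 11.1% and 13.5% of all genes. DESeq2 called 3 lower and 0 higher, beside 5.79% and 8.38% of the 17609 genes it tested, and limma voom 1 lower and 2 higher, beside 8.71% and 11.9%. Without control 1, edgeR called 2 lower and 1 higher, beside 7.07% and 10.3% of the 18235 genes then tested. The groups did not overlap for 1 member on the lower side, where 7.58% of all genes did the same, and for 1 on the higher side, where 9.77% did. The median log2 fold change of the tested members was -0.01, equal to that of all tested genes, and the fitted values were below 0 for 5 and above 0 for 4. The members were chosen by name, and no test was made of their number. Of the 6 genes taken as cone identity markers (*Opn1sw*, *Opn1mw*, *Arr3*, *Gnat2*, *Thrb* and *Rxrg*), 5 were tested and edgeR called 0, with 1 at an unadjusted p under 0.05 (*Arr3*, which DESeq2 called), and limma voom called 0.

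Subunits of 1 complex were also compared within a library, where scaling cancels. These ratios were chosen after the values of the members had been seen and carry no test. The ratio of *Pde6h* to *Pde6c* counts was 0.836, 1.02, 1.16 and 1.07 in Mettl3-CKO samples 1 to 4 and 2.21, 1.63, 1.58 and 2.18 in controls 1 to 4. The groups were well apart, with means of 1.02 ± 0.137 and 1.90 ± 0.342 (SD, n = 4 each). The ratio of *Gnb3* to *Gngt2* counts was 1.47, 1.58, 1.35 and 1.67 against 2.21, 2.05, 1.73 and 1.98 in the same order, and here too no sample crossed. The ratio of *Cnga3* to *Cngb3* counts, at 0.481, 0.414, 0.299 and 0.374 against 0.281, 0.366, 0.266 and 0.278, overlapped. The ratios of *Gnb3* and of *Gngt2* to *Gnat2* and of *Arr3* to *Opn1sw* overlapped as well. A ratio shows unequal change of a pair and not which of the 2 genes changed.

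**Figure D3:**
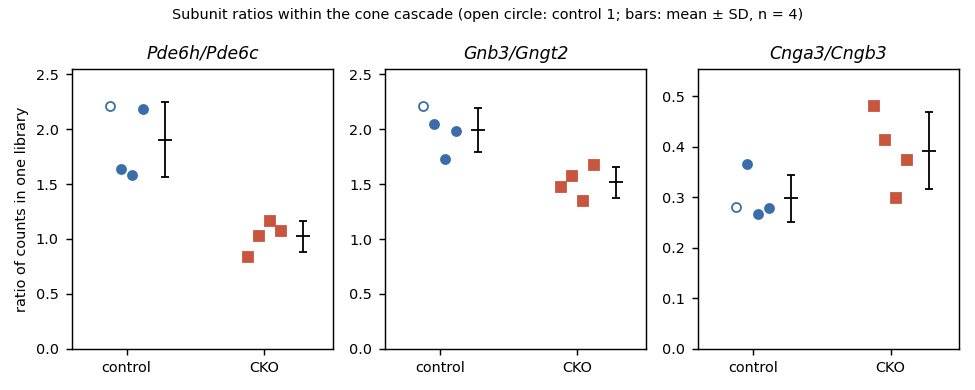
Ratio of the counts of cone cascade subunits within each library (y axis, from 0) in controls (circles, control 1 open) and Mettl3-CKO samples (squares), with mean ± SD, n = 4. *Pde6h*/*Pde6c* is at 0.836 to 1.16 in Mettl3-CKO and 1.58 to 2.21 in controls, *Gnb3*/*Gngt2* also separates, and *Cnga3*/*Cngb3* overlaps.

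More of the rod paralogues than of the cone genes passed the test. Of the 9 rod counterparts, *Pde6b* (log2 fold change -1.09, adjusted p = 0.0150), *Gnat1* (-0.98, 0.0284), *Sag* (-0.83, 0.0187), *Gngt1* (-0.75, 0.0445), *Cngb1* (-0.73, 0.0315) and *Gnb1* (-0.43, 0.0325) were lower by edgeR. *Cnga1* (-0.50, 0.291), *Pde6g* (-0.40, 0.329) and *Pde6a* (0.08, 0.899) did not pass. The median of the 9 was -0.73, and -0.46 without control 1. With 1 library left out the number called lower was 6 without control 1 or control 3 and 5 without Mettl3-CKO 4. It was 2 without control 2, control 4 or Mettl3-CKO 3, 1 without Mettl3-CKO 2 and 0 without Mettl3-CKO 1. In each of these fits 8 or 9 of the 9 fitted values were below 0, and 6 or 7 passed an unadjusted p of 0.05. Over all genes 729 were called lower with all samples and 185 without Mettl3-CKO 1.

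To compare each cone gene with its rod counterpart directly, the log2 ratio of their counts was taken within each library, and 9 pairs were tested over samples (2-sided exact permutation test, unadjusted; the smallest p that 4 against 4 samples can give is 0.0286). The mean ratio was higher in Mettl3-CKO retinas for 8 of the 9 pairs. The 8 include *Gnb3* over *Gnb1* at 0.01 and *Pde6c* over *Pde6a* at 0.16, which changed sign in 3 and 2 of 12 alternatives. *Pde6c* enters 2 of the pairs. Every Mettl3-CKO sample exceeded every control for 3 pairs. That number was 6 without Mettl3-CKO 4 or without control 3, and stayed at 3 when any other sample was left out.

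For *Gnat2* over *Gnat1*, the transducin α subunits, the log2 ratio was 3.12, 2.14, 2.88 and 2.06 in Mettl3-CKO samples 1 to 4 and 1.38, 1.57, 1.80 and 1.17 in controls 1 to 4, a difference of 1.07 (permutation p = 0.0286). For *Pde6c* over *Pde6b*, catalytic subunits, it was -1.34, -1.97, -1.94 and -2.56 against -3.60, -3.18, -3.14 and -3.17, a difference of 1.32 (permutation p = 0.0286). For *Arr3* over *Sag*, the arrestins, it was -5.00, -4.80, -5.09 and -4.99 against -5.45, -5.28, -5.21 and -5.21, a difference of 0.32 (permutation p = 0.0286). The level of *Arr3* itself had a log2 fold change of -0.50 and was not called. Without control 1 the 3 differences were 1.04, 1.21 and 0.26, each with a permutation p of 0.0571, the smallest that 4 against 3 allows.

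The differences in log2 ratio were 0.85 for *Cnga3* over *Cnga1*, 0.76 for *Cngb3* over *Cngb1* and 0.69 for *Gngt2* over *Gngt1*, each with an exact permutation p of 0.0571 and groups that overlapped. In all 3 pairs Mettl3-CKO 4 was the lowest of its group. *Pde6c* over *Pde6a* differed by 0.16 (exact permutation p = 0.486). The pairs with the called cone genes gave the lowest differences of the 9: *Gnb3* over *Gnb1*, a subunit that is not confined to rods, differed by 0.01 (exact permutation p = 0.971) and *Pde6h* over *Pde6g* by -0.30 (exact permutation p = 0.200).

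**Figure D4:**
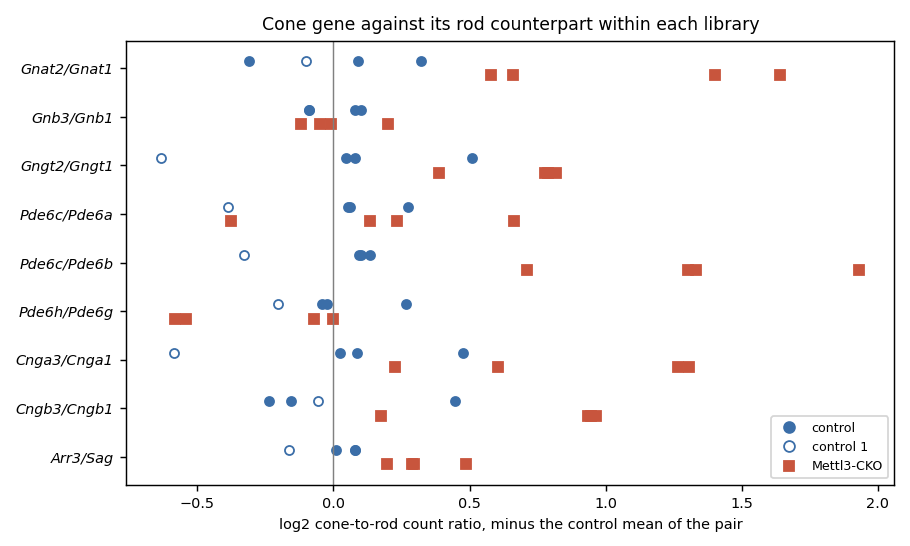
Log2 ratio of cone to rod counts in each library minus the control mean of that pair (x axis) for 9 gene pairs, in controls (circles, control 1 open) and Mettl3-CKO samples (squares). All Mettl3-CKO points lie to the right of all control points for *Gnat2*/*Gnat1*, *Pde6c*/*Pde6b* and *Arr3*/*Sag*, and *Gnb3*/*Gnb1* stays around 0.

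Few other genes of the pathway passed the test, beside 4.05% of all genes called lower and 6.49% higher. Of 12 genes of recovery and calcium feedback, which return the photoreceptor to the dark state, edgeR called 0. At an unadjusted p under 0.05, 3 were lower and 1 higher, DESeq2 called 1 lower, and limma voom 1 lower and 1 higher. Their median log2 fold change was -0.20, with 10 of 12 fitted values below 0, but 0.01 without control 1, with 6 of 12 below 0. Without control 1 *Rgs9*, the GTPase-activating protein that shuts transducin off, was lower (-0.25, adjusted p = 0.0432) and its membrane anchor *Rgs9bp* was higher (0.47, adjusted p = 0.0204). Among 7 cone genes outside the cascade, 6 were tested and 1 was lower: *Gulo*, at -0.33 ± 0.09 (SE; adjusted p = 0.0336), a call that held only without control 1 among the fits that left 1 sample out. *Ccdc136* was at -0.36 ± 0.13 (SE; adjusted p = 0.0963) with all samples and was called lower without control 1 (-0.48, adjusted p = 0.00297). The thyroid hormone receptor gene *Thrb*, needed for medium-wavelength opsin, was at 0.06 ± 0.11 and its partner *Rxrg* at 0.05 ± 0.11 (adjusted p = 0.811 and 0.822).

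Of 12 regulators of photoreceptor fate, 6 were lower and 0 higher by edgeR, beside 4.05% and 6.49% of all genes. Their median log2 fold change was -0.38. Also 0 were higher at an unadjusted p under 0.05, by DESeq2 and by limma voom. The number lower was 3 without Mettl3-CKO 1, 4 without Mettl3-CKO 2 or control 2, and 5 to 7 without any other sample. Over all genes 729 were lower with all samples and 185 without Mettl3-CKO 1. The 6 lower regulators included *Samd11* (-0.88, adjusted p = 0.00612), a Polycomb component of photoreceptors, and *Crx* (-0.42 ± 0.12, 0.0374), which acts in rods and cones. The rod fate genes *Nr2e3* (-0.81, 0.00615) and *Nrl* (-0.79, 0.00861) were also among them. *Crx* was at 726, 741, 962 and 986 CPM in Mettl3-CKO samples 1 to 4 and at 1278, 1074, 1111 and 1111 CPM in controls 1 to 4, so the groups did not overlap.

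Some markers of other cells passed the test too, beside 4.05% of all genes called lower and 6.49% higher. Of 6 progenitor markers 2 were higher, *Fgf15* (1.08, adjusted p = 0.00612) and the proliferation gene *Mki67* (0.98, adjusted p = 0.000701), and the summed level was 2287 to 3223 CPM in Mettl3-CKO and 1650 to 2256 CPM in controls. Of 5 tested Müller glia markers *Rlbp1* was lower (-1.28, adjusted p = 0.00305) and *Glul* higher (0.43, adjusted p = 0.00865), with sums of 1088 to 1248 and 1091 to 1560 CPM. Of 7 tested pigment epithelium markers 3 were lower (*Ttr*, *Pmel* and *Tyrp1*) and *Rgr* was higher, with sums of 56.7 to 77.6 and 77.3 to 110 CPM. Of 6 tested lens genes 4 were lower by edgeR and 0 by DESeq2 or limma voom, and control 4 held nearly all of their counts. The part of these cells in the cone cascade values was not tested. The cascade itself summed to 858 to 1157 CPM in Mettl3-CKO and 1049 to 1300 CPM in controls, and the 9 rod counterparts to 1098 to 1591 and 1597 to 2677 CPM.

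Per kilobase of exon, the mean levels of the members fell in the same order in both groups. The control means were 197 CPM per kilobase for *Gnb3*, 139 for *Gngt2*, 71.6 for *Opn1sw*, 12.3 for *Gnat2*, 8.64 for *Pde6c*, 7.68 for *Cngb3*, 6.29 for *Pde6h*, 5.28 for *Arr3*, 2.70 for *Cnga3* and 0.0588 for *Opn1mw*. The control values of *Gnat2* and *Pde6c*, *Pde6c* and *Cngb3*, *Cngb3* and *Pde6h*, and *Pde6h* and *Arr3* overlapped, so these neighbours did not differ beyond their spread. The lengths are the union of all annotated exons. *Pde6h* has 7846 bases of exon and coding transcripts of 211 to 5940 bases, and with the longest coding transcript as the length *Arr3* moves from place 8 to place 5, at 9.15 CPM per kilobase in controls.

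Across the 8 samples, the log2 levels most like *Arr3* were those of *Reep6* (Pearson's r = 0.989), *Rdh12* (0.988) and the rod arrestin *Sag* (0.984), all photoreceptor genes. The levels most like *Opn1sw* were those of *Dgcr6* (0.965), *Gm12989* (0.964) and *Fzd10* (0.962). These are descriptions over 8 samples that share group, scaling and the high control 1, and they were picked as the 3 highest of the tested genes with a mean log2 CPM of at least 1, members left out.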

How the data were processed

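Bulk RNA-seq of 4 Mettl3-CKO and 4 control retinal samples was used. Reads that passed the authors' quality filter had been aligned with Hisat2 (GRCm38), and featureCounts gave the deposited values, raw counts of each gene. The annotation release and strand setting are not given in the sources used here. Gene spans and exonic lengths of all 10 members equalled those of GENCODE vM21.

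The test was edgeR 4.0.16 under R 4.3.3 (filterByExpr, TMM, quasi-likelihood test, adjusted p under 0.05), with 17998 of 54532 genes tested. The fit was tested on simulated data. SE was the fold change divided by the root of F. Alternatives were limma 3.58.1 (voom), DESeq2 1.42.0 and other scalings, filters and samples. The cone-to-rod ratios used counts plus 0.5, and the subunit ratios and the opsin share used counts with nothing added. Exact permutation tests were made for the cone-to-rod ratios and the opsin share (scipy 1.17.1). The authors' methods used DESeq2.

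Members and gene lists were chosen with earlier results of these data known; 1 gene of the rod and retina lists is not reported here. Named genes were all members, their rod counterparts, *Mettl3*, the called genes of each list (at most 4, largest change first) and the 3 genes most correlated with *Opn1sw* and *Arr3*; *Opn1mw* was not tested. *Rgs9*, *Rgs9bp*, *Ccdc136*, *Grm6*, *Thrb* and *Rxrg* were named outside that rule after their values were seen.

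At 16227095 to 20281517 counts per sample, counting error is small for the tested members, the lowest of which had 1544 counts in all. Replicate numbers gave no clear pairing of the samples. Deviations of same-numbered samples had correlations of -0.111, 0.215, -0.114 and 0.249, and those of differently numbered samples ran from -0.227 to 0.264. These values cannot show that the samples were unpaired.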

Additional observations from a re-analysis of the deposited data

Results flagged for a closer look

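Within each group of 4 samples, 54 sets of levels and cone-to-rod ratios of the members and their rod counterparts were searched for a sample far from the other 3 (Dixon's test), and 6 were found where chance gives about 1 in 20, or 2.7. For *Cnga3* the log2 CPM was 4.17 in Mettl3-CKO 1 and lay between 3.67 and 3.72 in samples 2 to 4 of that group. For *Gngt2* the log2 CPM was 7.85 in control 2 against 8.07 to 8.09 in the other controls. For *Pde6a* the log2 CPM was 4.16 in control 1 against 3.24 to 3.32. The log2 ratio of *Gngt2* to *Gngt1* was 2.79 in Mettl3-CKO 4 against 3.18 to 3.22, and that of *Cngb3* to *Cngb1* was -1.97 in Mettl3-CKO 4 against -1.21 to -1.18. The log2 ratio of *Pde6c* to *Pde6b* was -3.60 in control 1 against -3.18 to -3.14.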

How the results depend on the processing

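Over 17 alternatives no member that was called changed direction. Genes called higher numbered 1168 with the main settings, 2142 with limma voom, 439 at an adjusted p under 0.01 and 509 to 1882 with 1 sample left out; genes called lower numbered 729, 1568, 147 and 185 to 1289. Both were lowest without Mettl3-CKO 1 and highest without control 1. Members called lower numbered 2 with the main settings, 1 with limma voom, 0 without controls 1 and 4, 0 at an adjusted p under 0.01 and 0 to 2 with 1 sample left out (0 without Mettl3-CKO 1, Mettl3-CKO 2 or control 4, and 1 without control 2); those called higher numbered 0, but 2 with limma voom and 0 to 1 with 1 sample left out (1 without control 1). *Gnb3* kept its call in 5 of 8 such fits and *Pde6h* in 3 of 8; without controls 1 and 4 their log2 fold changes were -0.28 (adjusted p = 0.111) and -0.34 (adjusted p = 0.220). In the further lists 22 genes were lower, 11 without controls 1 and 4 and 5 at an adjusted p under 0.01. With 1 sample left out they numbered 5 to 27 (5 without Mettl3-CKO 1, 8 without Mettl3-CKO 2, 10 without Mettl3-CKO 3 or control 4). Lens genes, with nearly all of their counts in control 4, made up 4 of the 22, 6 of the 27 without control 1 and 0 without control 4. In the same lists 6 genes were higher, 3 at an adjusted p under 0.01 and 3 to 7 with 1 sample left out (3 without Mettl3-CKO 1). Pairs with every Mettl3-CKO ratio above every control numbered 3, and 3 to 6 with 1 sample left out (6 without Mettl3-CKO 4 or without control 3). The difference in medium-wavelength opsin share ranged from -0.107 to 0.0541 percentage points. Fitted values near 0 changed sign for *Opn1sw* in 3, *Gngt2* in 9 and *Cngb3* in 4 alternatives, none of them called. With the replicate number as a block, 1198 genes were higher and 660 lower, 1 member was lower (*Gnb3*, adjusted p = 0.0484) and *Pde6h* was not called (0.0685); the samples share only a number, and no pairing follows from it. With the block 4 rod counterparts were lower. The cause of these shifts was not tested.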
